A study of Mus musculus with 6 samples.

Results

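The cells described here are macrophages of mouse visceral fat that carried many messages of complement C1q. They carried few of the resident and lipid-associated macrophage markers named below. The cells were chosen on raw counts of unique molecular identifiers (UMIs, each standing for 1 captured RNA molecule). A member had at least 20 UMIs of C1qa, C1qb and C1qc together, under 8 of the lipid markers Gpnmb, Mmp12, Rnf128, Cpe and Atp6v0d2, and under 4 of the resident markers Cd209f, Cd209g, Cd209d and Cd163. It also had under 3 UMIs of Ear2, under 3 of the monocyte genes Plac8 and Ms4a4c, under 5 of Sowahc, Ptgs2, Il6 and Nr4a3, and under 6 of the collagen genes Col3a1 and Col1a2. In all, 284 of 2114 kept cells (13.4%) met every limit, and they are called C1q-high cells in what follows.

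The series measured single-cell RNA in myeloid cells of visceral (epididymal) fat, sorted after collagenase digestion for the leukocyte antigen CD45 and the myeloid integrin CD11b. It compared 3 samples of a control diet with 3 samples of the diet that the labels call HFD, a high-fat diet. Strain, sex, age, weeks of feeding and the animals behind each sample were not given in the sources used here. Every p-value below therefore rests on these samples alone, all 6 unless stated. For diet within the members it is set against variation among samples. Between populations of the same samples it is set against variation of their difference from sample to sample. Such variation may be technical.

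Libraries shared cell barcodes. Of 2195 different barcodes behind the 5511 deposited entries, 1082 appeared in more than 1 sample. Each barcode was counted only in the sample where it had most UMIs, and 81 cells then failed the limits of at least 200 detected genes and at most 10% mitochondrial UMIs. Of the 284 C1q-high cells, 94 (33.1%) had a barcode listed in several samples. For these 94 the next largest entry had, at the median, 0.18 times the UMIs of the largest, and for 67 it lay in the other diet. Counted as deposited, 870 control and 529 HFD entries would meet the limits. Of these, 793 (91.1%) and 322 (60.9%) had a larger entry in another sample.

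C1q is the recognition part of the classical complement pathway. It is built from the chains encoded by C1qa, C1qb and C1qc, which lie next to each other in the genome, and tissue macrophages are a main source of it. In fat, macrophages that express lectins and scavenger receptors such as Lyve1 and Mrc1 lie along vessels in lean animals, whereas in obesity macrophages with Trem2, Cd9 and lysosomal enzymes gather around dying adipocytes and take up lipid. Monocytes reach the tissue through Ccr2, the receptor of the chemokines Ccl2, Ccl7 and Ccl12.

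The stretch of 250 bases before the transcription start is shown for 6 genes on which the results below turn, as the place where a reader would look for shared control elements. C1qb and C1qc helped to choose the cells, Ccl8 and Ccl12 are chemokines that separated them from lipid-marker cells, and Mgl2 and Ctsk had the largest fall and the largest rise with HFD among called genes with a mean of at least 50 CPM (the UMIs of a gene scaled to one common library total) and no overlap between the diets, antigen receptor and rule genes left aside. The genes were picked with their values known. Sequences are from RefSeq on the build GRCm38.p6, on the strand of the gene, 5′ to 3′, and 6 of the 9 genes looked up were found. C1qa, Ccl2 and Ccl7 are named only. Capitals mark GAGGAA, a purine-rich core bound by the myeloid factor PU.1, or its reverse complement TTCCTC, and TATAAA, the core of a TATA box. The windows lie at chr4:136886201-136886450 on the minus strand (C1qb), chr4:136892915-136893164 on the minus strand (C1qc), and on the plus strand at chr11:82114935-82115184 (Ccl8), chr11:82101595-82101844 (Ccl12), chr11:70130107-70130356 (Mgl2) and chr3:95498960-95499209 (Ctsk).
C1qb: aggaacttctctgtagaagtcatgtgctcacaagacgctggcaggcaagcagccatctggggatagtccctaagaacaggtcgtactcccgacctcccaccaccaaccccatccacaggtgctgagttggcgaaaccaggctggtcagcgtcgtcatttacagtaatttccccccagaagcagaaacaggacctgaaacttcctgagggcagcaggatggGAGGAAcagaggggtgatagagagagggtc
C1qc: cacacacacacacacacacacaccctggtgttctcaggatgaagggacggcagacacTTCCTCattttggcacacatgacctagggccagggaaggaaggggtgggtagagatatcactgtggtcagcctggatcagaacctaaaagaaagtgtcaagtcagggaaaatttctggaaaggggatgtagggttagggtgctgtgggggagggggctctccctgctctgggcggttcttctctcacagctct
Ccl8: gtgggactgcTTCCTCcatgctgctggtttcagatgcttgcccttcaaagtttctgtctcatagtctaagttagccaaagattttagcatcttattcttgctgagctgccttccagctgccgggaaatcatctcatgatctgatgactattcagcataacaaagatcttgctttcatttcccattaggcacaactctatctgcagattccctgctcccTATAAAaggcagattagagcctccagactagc
Ccl12: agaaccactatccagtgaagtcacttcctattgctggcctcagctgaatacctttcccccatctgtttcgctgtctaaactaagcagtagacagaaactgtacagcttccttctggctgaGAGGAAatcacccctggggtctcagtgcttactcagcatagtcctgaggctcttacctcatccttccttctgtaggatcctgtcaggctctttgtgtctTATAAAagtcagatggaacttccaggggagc
Mgl2: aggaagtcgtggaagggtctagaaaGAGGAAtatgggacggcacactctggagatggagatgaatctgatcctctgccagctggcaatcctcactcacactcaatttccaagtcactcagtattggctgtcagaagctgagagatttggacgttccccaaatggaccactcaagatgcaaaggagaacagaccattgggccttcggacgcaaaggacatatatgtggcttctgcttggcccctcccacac
Ctsk: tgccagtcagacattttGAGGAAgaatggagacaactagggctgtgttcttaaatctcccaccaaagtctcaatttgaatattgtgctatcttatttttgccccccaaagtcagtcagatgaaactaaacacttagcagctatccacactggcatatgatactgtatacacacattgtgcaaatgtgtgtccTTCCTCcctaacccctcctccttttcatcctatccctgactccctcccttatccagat

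GAGGAA or its reverse complement stood in all 6 windows, against 23.25% of 32851 windows of the same length. It began 30 bases before the start in C1qb and 130 in Ccl12, and Ctsk held a match on each strand. TATAAA stood 32 bases before the start in Ccl8 and 31 in Ccl12, on the strand of the gene, and in 12.37% of all windows on either strand. Such a match is a description of the letters and not a site.

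Members numbered 19, 27 and 31 in control samples 1, 2 and 3 and 80, 53 and 74 in HFD samples 1, 2 and 3. They took 4.90%, 10.4% and 9.17% of the kept control cells by sample, and 17.7%, 18.0% and 19.5% of the kept HFD cells. Each HFD sample thus stood above each control sample, with means of 8.15% ± 2.88 and 18.4% ± 0.97 (SD, n = 3 each), a difference of 10.2 percentage points. The two-sided exact permutation test gave p = 0.1, the smallest that 3 against 3 samples allow. Of all cells with 20 or more C1q UMIs, members made up 15.7% ± 7.53 in control and 27.0% ± 2.37 in HFD.

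This share depended on the lipid-marker limit and on depth. Members with 3 to 7 lipid-marker UMIs were 0 of 19, 2 of 27 and 6 of 31 in control and 46 of 80, 35 of 53 and 35 of 74 in HFD. Over all samples, 8 of 77 control members (10.4%) and 116 of 207 HFD members (56.0%) lay in that range. With a limit of under 3 the share was 7.30% ± 2.36 in control and 7.96% ± 2.12 in HFD (exact permutation p = 0.7), a difference of 0.65 points, and the ranges overlapped. In the 1617 cells with at least 5000 UMIs the share was 7.29% ± 3.06 and 17.1% ± 1.19. Thinned to 5000 UMIs each, which lowers the counts behind every upper limit, these cells gave 11.7% ± 2.82 and 34.9% ± 4.79, and 497 shallower cells were left out. As deposited, with barcodes counted in each sample that lists them, the difference was -2.65 points (exact permutation p = 0.3).

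**Figure D1:**
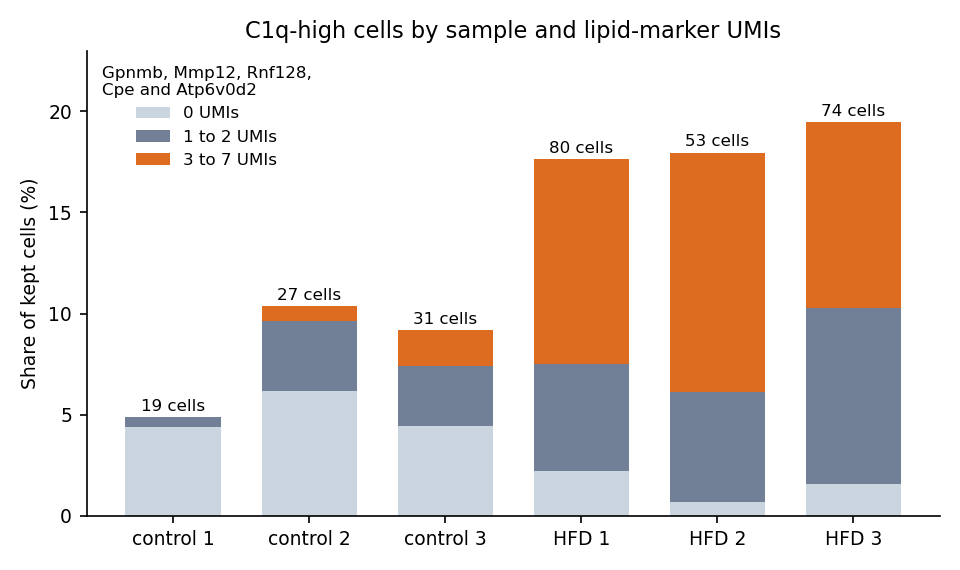
Share of kept cells (%) that were C1q-high cells in each sample, with bars divided by the cell's UMIs of the 5 lipid markers and the number of cells printed above. HFD bars reach 17.7% to 19.5% and control bars 4.90% to 10.4%, and the part with 3 to 7 lipid-marker UMIs lies mostly in the HFD bars.

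The limits cut through a continuum. Inside the lipid-marker limit, 37 cells (36 of them HFD) had 6 or 7 UMIs, and just outside it 36 cells (35 HFD) had 8 or 9, with median C1q sums of 133 and 145. Inside the resident-marker limit, 12 cells had 3 UMIs (10 control), and 10 cells that met every other limit had 4 (9 control). At the C1q limit, 8 members had 20 to 24 UMIs and 17 cells outside had 15 to 19. Resident-marker UMIs below the limit, 1 to 3 in number, were found in 46 of 77 control members (59.7%) and 44 of 207 HFD members (21.3%). Only 30 of the 284 had neither a lipid-marker nor a resident-marker UMI.

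Median depth was 6380, 5814 and 5814 UMIs per member in control and 7406.5, 8013 and 7319 in HFD, so relative to depth the fixed upper limits were stricter, and the C1q floor laxer, on HFD cells. The C1q sum, which chose the cells, had a median of 61 UMIs in control and 104 in HFD, or 124 and 143 per 10000 UMIs. In CPM of all UMIs, C1qa stood at 4199, 3150 and 3841 in the control samples, against 4210, 4374 and 4237 in HFD. C1qb and C1qc lay between 2803 and 5715.

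The macrophage label held against markers that the rule did not use. Lyz2, the lysozyme of myeloid cells, stood between 14609 and 21800 CPM in every sample, and Csf1r, the receptor of the macrophage growth factor, between 635 and 757. All 15 pan-macrophage markers were detected. The messages of the sort antigens were present too, with Ptprc (CD45) at 121 to 164 CPM and Itgam (CD11b) at 68.9 to 202. Of the 13 monocyte markers 12 were detected, summing to 2035 to 2797 CPM in control and 1651 to 1806 in HFD. Ccr2 was found in 104 members and S100a4 in 191, whereas Ly6c2 reached at most 18.9 CPM and Vcan was at 0. Timd4, a marker of long-lived resident macrophages, reached at most 15.3 CPM.

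Markers of other cells were low, with exceptions that differed between samples. T cell markers summed to at most 50.9 CPM in any sample, natural killer markers to 27.9, neutrophil markers to 63.1 and endothelial markers to 63.2. The 10 markers of type 2 conventional dendritic cells (cDC2) summed to 1393 to 1717 CPM in control and 483 to 578 in HFD. Without Mgl2 the sums were 562 to 971 and 324 to 507, and the defining gene Flt3 reached at most 6.31 CPM. Fibroblast markers summed to 202 to 413 CPM in control and 780 to 908 in HFD, or 56.8 to 184 and 242 to 381 without Gsn. Serous cavity markers ranged from 301 to 5515 CPM in control and 90.0 to 2182 in HFD. Immunoglobulin genes stood at 185 to 627 CPM in 4 samples but at 49991 in HFD 2 and 30727 in HFD 3, where 1 cell held 91.5% and 97.6% of them, respectively. In all, 3 members had at least 100 such UMIs, 2 of them in HFD 2 and 1 in HFD 3. The part of these cells in the results below was not tested, except where values without them are given.

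The next comparison asked which genes differed with diet within the C1q-high cells, with the counts of all members of a sample summed. Some genes of lipid uptake and lysosomal breakdown rose with HFD, among them Trem2, Lpl, Ctsk and Ctsd. The chemokines Ccl2 and Ccl7, Tnf, the lectin Mgl2 and the resident genes Cbr2, Ltc4s and Pf4 fell. Most members of the lists that hold these genes did not pass the test, with 6 of 30 lysosome genes, 3 of 13 fatty acid genes, 4 of 15 chemokines and 3 of 16 resident genes called. Of 3659 genes tested, 29 were higher (0.793%) and 52 lower (1.42%) at an adjusted p under 0.05, 2.21% called in all, and 574 had an unadjusted p under 0.05. Without the genes of the selection rule the counts were 29 and 49. Of the genes lower in HFD, 8 were ribosomal pseudogenes, of 12 tested, and 10 were predicted genes with Gm names, whose reads may come from near-identical parent genes. The calls leaned on HFD 1, the sample with most members. Without it 8 genes were higher and 5 lower of 2451 tested (0.53%). Of the 75 calls still tested, 12 were made again, although all 75 kept their sign.

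Ctsk, cathepsin K, a collagen-degrading protease, had the largest rise among the genes named by size. It went from 0, 13.8 and 23.2 CPM in control to 116, 67.7 and 133 in HFD. The control values came from only 0, 2 and 4 UMIs, against 71, 32 and 75 in HFD, so the size of this rise is uncertain. The log2 fold change was 2.92 ± 0.55 (SE; adjusted p = 0.0190). Trem2, a lipid receptor of macrophages in fat, stood at 173, 332 and 330 CPM in control and 765, 738 and 644 in HFD (1.34 ± 0.21, adjusted p = 0.00976). No HFD sample overlapped the controls for either gene, as the naming rule required. Lpl, the lipase that frees fatty acids from lipoproteins, went from 545 ± 283 to 1465 ± 211 CPM (SD, n = 3 each; 1.41 ± 0.31, adjusted p = 0.0397). The fatty acid carriers Fabp4 and Fabp5 rose by 1.50 ± 0.32 and 1.48 ± 0.23. In HFD 1, 1 cell held 159 of the 525 Fabp4 UMIs. Ctsd, cathepsin D, went from 837 ± 286 to 2032 ± 246 CPM (1.27 ± 0.21, adjusted p = 0.0122). Lipa, the acid lipase of lysosomes, rose by 0.94 ± 0.18.

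Socs3, a feedback inhibitor of interleukin 6 signalling, stood at 164, 97.0 and 92.7 CPM in control and 502, 311 and 351 in HFD (1.76 ± 0.26, adjusted p = 0.00687). Gsn, the actin-severing protein gelsolin and one of the fibroblast markers, went from 221 ± 53.8 to 550 ± 21.9 CPM (1.32 ± 0.18, adjusted p = 0.00627). Both were called without any 1 of the 6 samples and under the other alternatives tried. The fibroblast markers other than Gsn also summed higher with HFD, at 56.8 to 184 and 242 to 381 CPM in members. In resident-marker cells they summed to 67.2 to 199 and 289 to 388. The part of fibroblast RNA in the rise of Gsn was not tested. The integrin chain Itgb5, which takes part in uptake of dead cells, the membrane protein Ms4a7 and the myristoyltransferase Nmt1 rose by 1.51 ± 0.26, 1.19 ± 0.20 and 1.25 ± 0.27.

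Without HFD 1, the calls of Ctsk, Itgb5, Fabp4, Lpl, Trem2, Ctsd, Nmt1 and Ms4a7 were lost (adjusted p = 0.0613 to 0.137), with log2 values from 1.19 to 2.87. Without HFD 2, those of Fabp4, Lpl, Nmt1 and Lipa were lost (0.0503 to 0.0981), and without HFD 3 those of Lpl and Nmt1 (0.0571 and 0.0585). Without control 1, Fabp4 and Lipa were lost (0.0517 and 0.0678). Without control 2, Ctsk, Fabp4, Nmt1 and Ms4a7 were lost (0.0566 to 0.133), and without control 3 Fabp4, Lpl, Nmt1, Ms4a7 and Lipa (0.0515 to 0.111). In members with under 3 lipid-marker UMIs, Trem2, Lpl, Ctsd, Ms4a7, Socs3 and Gsn were called, and Itgb5, Fabp4, Fabp5, Nmt1 and Lipa were not (adjusted p = 0.0824 to 0.2). Ctsk was not tested there. In members of 5000 UMIs or more, Ctsk, Fabp4, Lpl, Nmt1 and Lipa were not called (0.0546 to 0.0954). With a C1q sum of 10 or more, Fabp5 was at -0.023 (adjusted p = 0.995) and Nmt1 was not called (0.0583), and with 40 or more Nmt1 was not called (0.0638). As deposited, Ctsk, Fabp4, Fabp5, Lpl, Trem2, Ctsd, Ms4a7 and Lipa had the opposite sign, and over all diet calls 42 of the 80 tested there kept their sign.

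Mgl2, a galactose-binding lectin induced by interleukin 4 and also a marker of dermal and cDC2-type dendritic cells, had the largest fall among the genes named by size. It stood at 805, 1267 and 660 CPM in control and 116, 173 and 76.3 in HFD (-2.91 ± 0.29, adjusted p = 0.00103). In control 2, 1 cell held 91 of the 183 Mgl2 UMIs. Cbr2, a carbonyl reductase of resident macrophages, stood at 424, 422 and 521 CPM in control and 74.9, 129 and 145 in HFD (-1.98 ± 0.22, adjusted p = 0.00184). Ltc4s, leukotriene C4 synthase, fell by 1.54 on the log2 scale and Pf4, platelet factor 4, by 0.89. Mgl2 and Cbr2 were called in all 18 alternatives.

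Ccl2, the main chemokine that draws Ccr2-bearing monocytes, was the most abundant gene among the falls named by size. It stood at 7831, 4342 and 4425 CPM in control and 848, 1759 and 1607 in HFD (-1.98 ± 0.28, adjusted p = 0.00687). In control 1, 1 cell held 237 of the 905 Ccl2 UMIs. Ccl7, which acts on the same receptor, went from 3897 ± 781 to 1525 ± 642 CPM (-1.35 ± 0.26, adjusted p = 0.0201). The cytokine Tnf went from 535 ± 78.9 to 215 ± 57.1 CPM (-1.31 ± 0.20, adjusted p = 0.00736). Ccl3, a chemokine of activated macrophages, fell by 1.19, and 1 cell held 96 of its 200 UMIs in control 2. Ccl8 did not pass, at 2328, 893 and 857 CPM in control and 749, 645 and 4463 in HFD (0.53 ± 0.62), and HFD 3 stood apart from the other HFD samples.

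The remaining falls named by size were Ifitm6, an interferon-inducible membrane protein of myeloid cells (-2.26 ± 0.43), Lyz1 (-2.07 ± 0.35), Tagap (-1.64 ± 0.29), the cytokine Tslp (-1.47 ± 0.30), the ubiquitin ligase Mylip (-1.27 ± 0.27) and Nme2 (-1.23 ± 0.26). Lyz1 and Nme2 have close relatives, and reads divided between copies cannot be told apart here. In HFD 3, 1 cell held 77 of the 154 Lyz1 UMIs. Il1b, the precursor of interleukin 1 beta, stood at 1698 ± 719 and 806 ± 243 CPM and did not pass (-1.07 ± 0.30, adjusted p = 0.0874). Retnla, a secreted protein induced by interleukin 4, ranged from 2458 to 16234 CPM in control and 97.7 to 2116 in HFD (adjusted p = 0.0968).

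Among these falls only Mgl2, Cbr2 and Ccl2 were called without each of the 6 samples. Without HFD 1, Ifitm6, Lyz1, Tagap, Ltc4s, Tslp, Ccl7, Tnf, Mylip, Nme2, Pf4 and Ccl3 were lost (adjusted p = 0.0613 to 0.137). Without HFD 2, Ifitm6, Tslp, Ccl7, Mylip, Nme2 and Ccl3 were lost (0.0659 to 0.0981), and without HFD 3 Tslp, Mylip, Pf4 and Ccl3 (0.0519 to 0.0792). Without control 1, Tslp, Mylip, Nme2 and Ccl3 were lost (0.0533 to 0.111). Without control 2, Tagap, Tslp, Mylip, Nme2 and Ccl3 were lost (0.0566 to 0.136), and without control 3 Ifitm6, Tagap, Tslp, Ccl7, Mylip and Nme2 (0.0633 to 0.13). In barcodes listed in 1 sample only, Lyz1, Ltc4s, Ccl7, Tnf, Nme2 and Ccl3 were not called (adjusted p = 0.142 to 0.476), nor were the rises of Itgb5, Fabp4, Nmt1 and Lipa (0.0544 to 0.224). In members with under 3 lipid-marker UMIs, the falls of Ccl7, Ccl3, Ifitm6, Lyz1, Tslp and Mylip were not called (0.0558 to 0.258). In members of 5000 UMIs or more, Ccl7, Ccl3, Ltc4s, Pf4, Tagap, Tslp, Mylip and Nme2 were not called (0.0512 to 0.385). With a C1q sum of 10 or more, Ccl3, Tslp and Mylip were not called (0.0504 to 0.187).

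**Figure D2:**
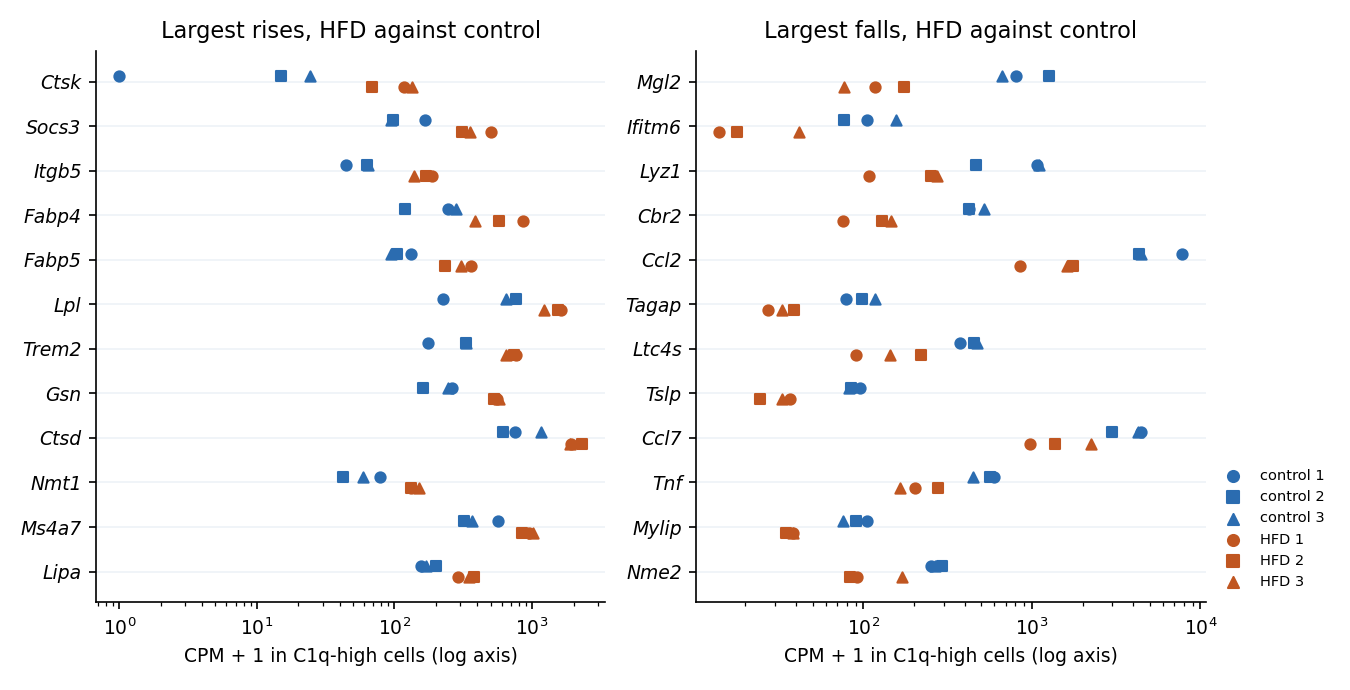
CPM + 1 (log axis) in summed C1q-high cells for the 12 largest rises and 12 largest falls with HFD, 1 point per sample, with colour for the diet and shape for the sample number. The HFD points of each gene lie on one side of its control points, as the naming rule required, with Mgl2 at 76.3 to 173 CPM in HFD and 660 to 1267 in control.

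Gene lists showed where the calls fell. Of 20 lipid-associated genes 7 were higher and none lower, with a median log2 fold change of 0.65 against 0.01 over all genes tested, and 13 had a higher value at an unadjusted p under 0.05. Of 30 lysosome genes 6 were higher, with a median of 0.39, and they included Ctsb, cathepsin B (3379 ± 686 to 5828 ± 200 CPM), and Cd68 besides Ctsk, Ctsd and Lipa. Of 13 fatty acid genes 3 were higher (Fabp4, Fabp5 and Lpl). The pan-macrophage list had 4 of 15 higher, among them the lysosomal glycoprotein Cd68, the lipid carrier Apoe and Ms4a7, and 1 lower, the transcription factor Maf. Of 13 complement genes tested, C3ar1, the receptor of the C3a fragment, was higher (295 ± 41.1 to 469 ± 31.8 CPM).

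Other lists held falls. Of 16 resident genes 3 were lower (Cbr2, Ltc4s and Pf4), with a median of -0.50. Chemokines had 4 of 15 lower (Ccl2, Ccl7, Ccl3 and Pf4) with a median of -0.68, and NF-kB target genes 3 of 18 (Tnf, Ccl3 and Ier3) with a median of -0.39. For the 9 genes of MHC class II presentation edgeR called 0, with a median of -0.64. At an unadjusted p under 0.05, 6 were lower and 1 higher, against 574 of all 3659 genes in either direction. DESeq2 called 3 lower of the 7 to which it gave an adjusted p. Over all 1471 such genes it called 6.39% lower, against 1.42% by edgeR. H2-Aa, an MHC class II chain, stood at 18630, 15637 and 14635 CPM in control and 11010, 7830 and 12574 in HFD, without overlap, at an adjusted p of 0.0644. Groups did not overlap in 22.0% of all genes tested. Mrc1, F13a1, Folr2 and Lyve1, resident genes, had log2 values of -0.44, -0.78, -0.32 and -1.05, none of which passed. Ribosomal protein genes, 85 in number, had a median of -0.31.

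Of the list genes named above, Cd68, Apoe, Maf, C3ar1, Ctsb and Ier3 each lost the call without at least 1 sample (adjusted p = 0.0502 to 0.2), HFD 1 among them in each case. Without that sample their log2 values were 0.74, 0.58, -0.82, 0.66, 0.84 and -0.94. The immunoglobulin heavy chain gene Ighm was also called higher, at 4.76 ± 0.95. It stood at 372, 298 and 203 CPM in control and 251 in HFD 1, against 12835 in HFD 2 and 10353 in HFD 3. Without the 3 members rich in immunoglobulin, Ighm was at 0.31 (adjusted p = 0.613). The counts of called genes were then 34 higher and 77 lower of 3464 tested (3.2%).

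A separate test asked whether the diet difference within C1q-high cells was unlike that in the other cells with 20 or more C1q UMIs. Of 6968 genes, 25 had a higher (0.359%) and 2 a lower (0.0287%) HFD minus control value in members, 0.387% called in all. These other cells were themselves a mixture that shifted: resident-marker cells numbered 108, 42 and 71 in the control samples but 10, 10 and 12 in HFD. Lipid-marker cells numbered 0, 2 and 12 in the control samples but 161, 83 and 94 in HFD. The rule itself put both kinds of cell in this group. Genes that go along with their markers would thus differ by construction, and the calls are given as a description only. Ccl7 had the smallest p, with a difference of 1.53 ± 0.16 on the log2 scale. In these sums it stood at 4298, 2861 and 4069 CPM in control members and 954, 1311 and 2173 in HFD members, against 3362, 1853 and 2680 and 268, 321 and 435 in the other cells. It was lower with HFD in both, and less so in members. Socs3 (1.60 ± 0.27, adjusted p = 0.0102) went from 160, 92.5 and 88.1 CPM to 491, 297 and 342 in members and stood at 114 to 161 and 139 to 184 in the other cells.

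Resident genes accounted for 4 of the 25, namely F13a1, Mrc1, Fcna and Fcgrt, of 18 tested. Mrc1, the mannose receptor, stood at 304 to 396 CPM in control members and 225 to 273 in HFD members, against 421 to 504 and 156 to 183 in the other cells. Lgals1, galectin 1, and Vim, vimentin, were the 2 lower genes, at -1.02 ± 0.19 (adjusted p = 0.0196) and -0.89 ± 0.17 (adjusted p = 0.0182). Lgals1 went from 937 to 1808 CPM up to 3070 to 3358 in the other cells, and stood at 1256 to 1824 and 1806 to 2329 in members. Without control 1, control 2 or HFD 3 neither was called (adjusted p = 0.0904 to 0.138), and Lgals1 also not without HFD 1 (0.0501).

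The last comparisons describe how the members differed from the cells that the rule set apart, within the same samples. The rule drew this contrast on marker genes in the same counts, so genes that go along with those markers had to differ, and the calls are given as a description only. Lipid-marker cells met every other limit but had 8 or more lipid-marker UMIs, and 4 samples held at least 10 of both (control 3 and HFD 1, 2 and 3). Of 5251 genes, 486 were higher (9.26%) and 398 lower (7.58%) in members, 16.8% called in all. Lipid-marker cells were deeper, with a median of 14920 UMIs against 7219.5 in members.

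Most chemokines and MHC class II genes and all 18 immediate early genes tested were higher in members than in lipid-marker cells. Both populations had to hold under 5 UMIs of the rule genes Sowahc, Ptgs2, Il6 and Nr4a3. Relative to depth, this limit was stricter on the deeper lipid-marker cells. Over all samples these genes averaged 0.72 UMIs per lipid-marker cell and 0.71 per member. The part of this limit in the differences of immediate early and NF-kB genes was not tested. Ccl7 stood at 4280, 980, 1375 and 2283 CPM in members of control 3 and HFD 1, 2 and 3, and at 514, 183, 144 and 239 in their lipid-marker cells, a log2 difference of 2.99 ± 0.15 (SE). Mgl2 (3.60 ± 0.22), the eosinophil chemokine Ccl24 (3.01 ± 0.29), the monocyte chemokines Ccl8 (2.79 ± 0.18) and Ccl12 (2.76 ± 0.31), Ltc4s (2.74 ± 0.19), Plbd1 and Ly6e were the other largest. H2-Aa stood at 14637, 11082, 7855 and 12871 CPM in members and 5530, 3791, 4018 and 4461 in lipid-marker cells. By list, 11 of 15 chemokines, 7 of 8 MHC class II genes, 12 of 18 NF-kB genes, 18 of 18 immediate early genes and 12 of 15 resident genes were higher in members. The chemokines Ccl9 (-0.50 ± 0.11) and Cxcl14 (-1.95 ± 0.45), the class II protease Ctss (-0.52 ± 0.15) and, among NF-kB genes, Tnf were lower in members, Tnf at 274 ± 123 CPM against 413 ± 202 (SD, n = 4 samples).

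Lipid handling and lysosomal genes were lower in members. Ctsk stood at 23.2, 116, 67.9 and 136 CPM in members and 674, 1009, 544 and 1041 in lipid-marker cells (-3.18 ± 0.18). Zranb3 (-3.70 ± 0.24), the clotting factor gene F7 (-3.24 ± 0.47), the phagocytic bridge protein Mfge8 (-2.83 ± 0.24), osteopontin Spp1 (-2.32 ± 0.37), the integrin Itgax (-2.27 ± 0.21), Ctsl and Qpct followed. All 20 lipid-associated genes, 18 of 30 lysosome genes, 10 of 15 fatty acid genes and 9 of 14 glycolysis genes were lower. Trem2 stood at 330 to 770 CPM in members and 1528 to 1784 in lipid-marker cells.

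Resident-marker cells had 4 or more UMIs of the 4 resident markers and met every other limit, and all 6 samples held at least 10. Of 2582 genes, 151 were higher (5.85%) and 188 lower (7.28%) in members, 13.1% called in all. Median depth was 6182 UMIs in resident-marker cells and 7219.5 in members. All 7 MHC class II genes tested were higher in members, and so were 7 of 17 NF-kB genes, with 1 lower (Ier3). Other lists were divided, with 4 chemokines higher and 5 lower of 14, 2 immediate early genes higher and 4 lower of 18, and 1 interferon gene higher and 3 lower of 7. Il1b stood at 2400, 2024 and 922 CPM in control members and 889, 583 and 1088 in HFD members, against 418, 268 and 266 and 366, 475 and 210 in resident-marker cells of the same samples (1.90 ± 0.25). Tnip3 (2.17 ± 0.24), Dusp2 (2.12 ± 0.24), the urokinase receptor Plaur (1.96 ± 0.42), Sirpb1c, Id3, Bcl2a1d and the tetraspanin Cd9 (1.64 ± 0.19) were the other largest. H2-Aa was higher in members in 6 of 6 samples (1.05 ± 0.10).

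Resident genes outside the rule were lower in members, 16 of 17 tested. Cd209b, a relative of the rule's Cd209 genes, stood at 2.37 ± 4.79 CPM in members and 286 ± 158 in resident-marker cells (SD, n = 6 samples), and reads could be divided among such relatives. Fcna, ficolin A, differed by -2.53 ± 0.21, the endothelin receptor Ednrb by -2.51 ± 0.21, the phospholipase Pla2g2d by -2.48 ± 0.32, Ccl8 by -2.14 ± 0.32, the hyaluronan receptor Lyve1 by -2.05 ± 0.31, Retnla by -1.91 ± 0.32 and Fxyd2 by -1.89 ± 0.16. Lyve1 stood at 73.0, 29.1 and 209 CPM in control members and 10.3, 78.8 and 78.8 in HFD members, against 170 to 429 in resident-marker cells. Trem2, at 525 ± 266 and 478 ± 284 CPM, had a log2 difference of 0.18 ± 0.11. Members were not at the level of lipid-marker cells for such genes either: in the 4 samples compared above, Fcna stood at 167 ± 89.0 CPM in members and 42.0 ± 7.34 in lipid-marker cells, and F13a1 at 386 ± 206 and 79.3 ± 57.4.

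**Figure D3:**
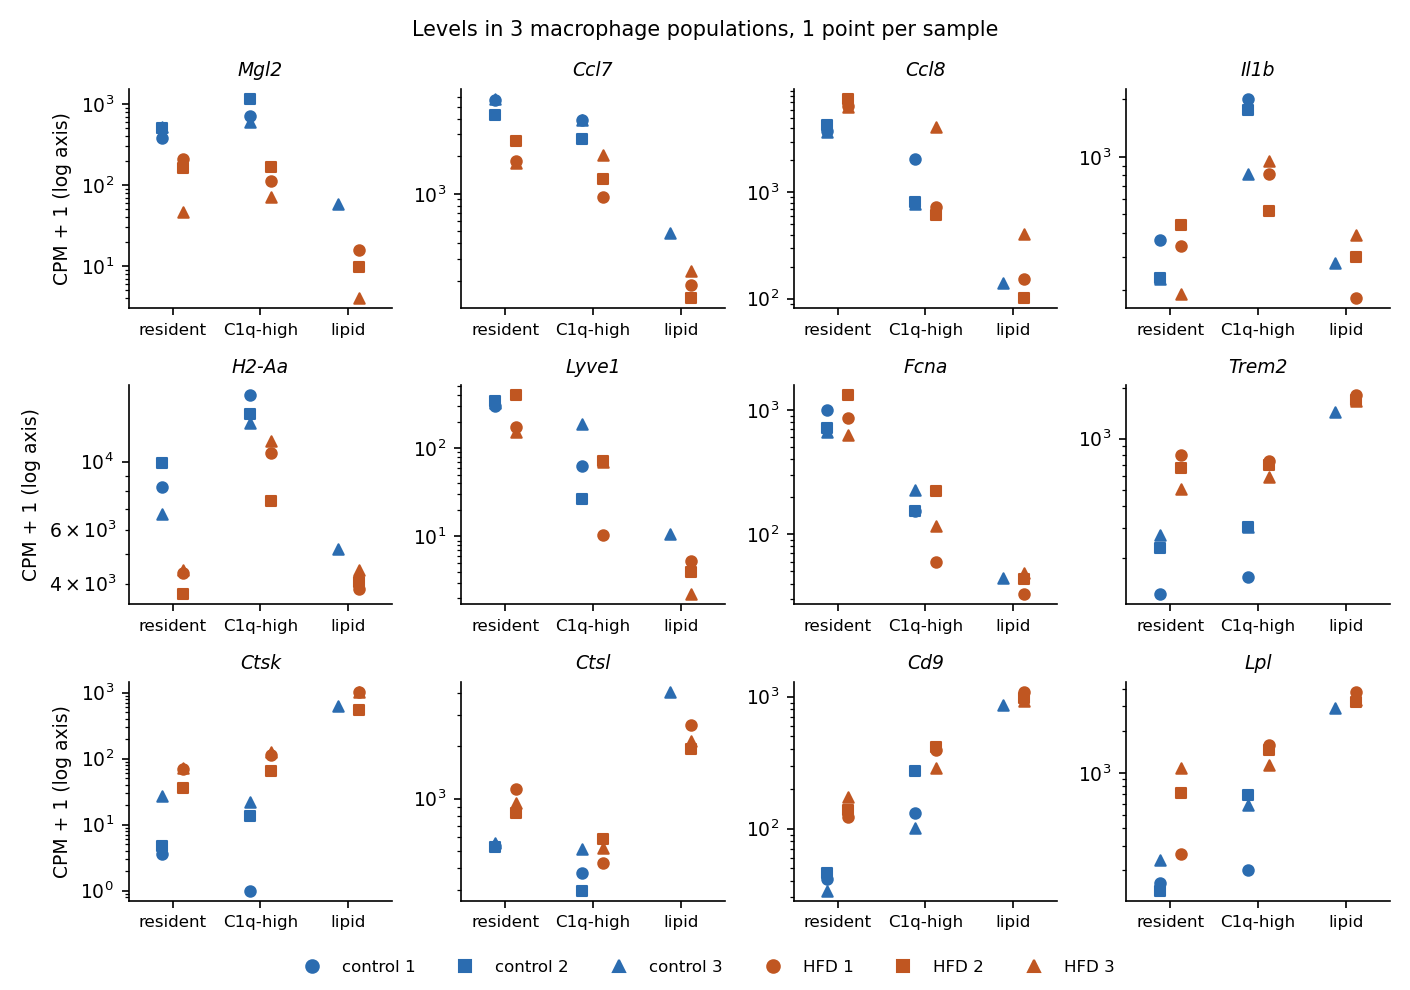
CPM + 1 (log axis, scaled to all UMIs of each summed population) of 12 genes in resident-marker, C1q-high and lipid-marker cells, 1 point per sample with at least 10 such cells. On this scale Ccl7 is at 145 to 484 CPM in lipid-marker cells and 945 to 3901 in C1q-high cells, and Ctsk at 547 to 1036 and 0 to 123.

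**Figure D4:**
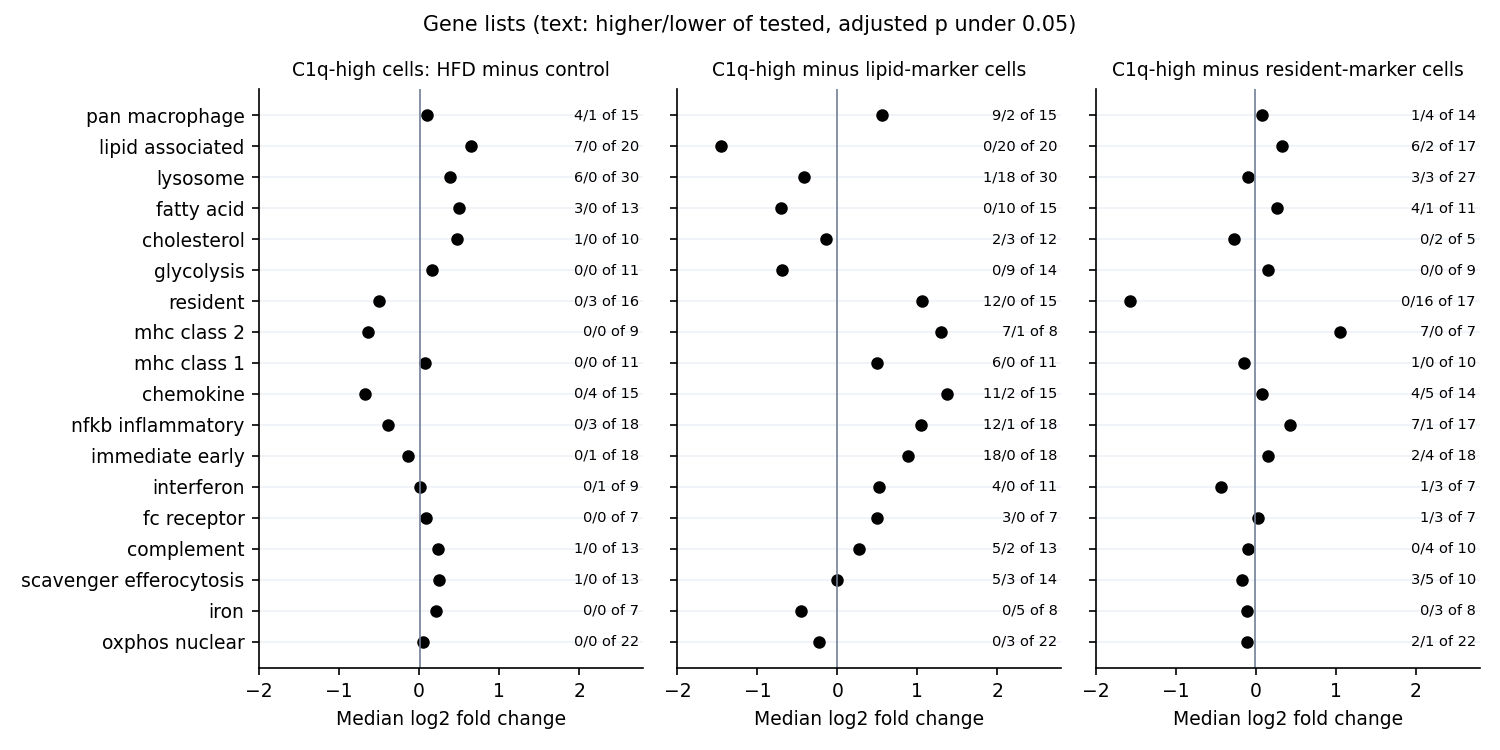
Median log2 fold change of the tested genes of 18 lists for HFD against control in C1q-high cells, and for C1q-high against lipid-marker and against resident-marker cells. The printed counts are genes higher and lower of those tested at an adjusted p under 0.05, and the vertical line is the median of all genes. The lipid-associated list lies to the right of the line for diet (0.65) and to the left of it against lipid-marker cells (-1.45).

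Clusters made within the 284 cells, without the rule genes, described how members differed among themselves. Cluster 1 held 101 cells and made up 84.2%, 63.0% and 71.0% of control members and 18.8%, 22.6% and 25.7% of HFD members. Cluster 2, with 89 cells, held 1 control cell and 88 HFD cells, 35.1% to 47.5% of HFD members. Cluster 3 had 59 cells, between 3.77% and 33.3% of a sample's members, and cluster 4 had 35 cells, 3 of them control. The clusters were built from these genes, so neither their genes nor their sizes were tested, and none of them is given a cell type name.

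Cluster 1 was led by Igj, Saa3, Slpi, Cxcl13 and Prg4, but few cells carried these: the 3 cells richest in Igj held 97.3% of its UMIs, and the 3 richest in Saa3 held 74.9%. All 3 members rich in immunoglobulin lay in this cluster. Lyve1 (161 CPM against 6.17 in the other members) was found in 35 of the 284 cells, with 55.4% of its UMIs in 3 of them. Ltc4s (480 against 47.3) was found in 107 and Ccl24 (381 against 40.4) in 84, with 15.6% and 29.9% in the top 3. Cluster 2 was led by Gdf3, a growth factor of the TGF-beta family, Fabp4 (934 CPM against 304), Itgb5 (254 against 80.9), Il10 (175 against 57.2) and Socs3 (561 against 207). It had a median of 3 lipid-marker UMIs, and clusters 1, 3 and 4 had 1, 2 and 4. Cluster 3 was led by Ccl5, H2-DMb2, Sirpb1c, the lectin Cd209a (192 against 26.3 CPM), Cxcl9 and Napsa, although 1 cell held 65.2% of the Ccl5 UMIs. Cluster 4 was led by genes of dividing cells, Stmn1 (448 against 39.4 CPM), Ube2c, Birc5, Cdk1 and Top2a, and had the lowest median depth, 5341 UMIs. Few cells carried most of these too: 3 cells held 67.4% of the Birc5 UMIs, 66.7% of Cdk1 (found in 9 members), 65.0% of Top2a (10 members), 52.6% of Ube2c and 41.8% of Stmn1 (76 members).

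**Figure D5:**
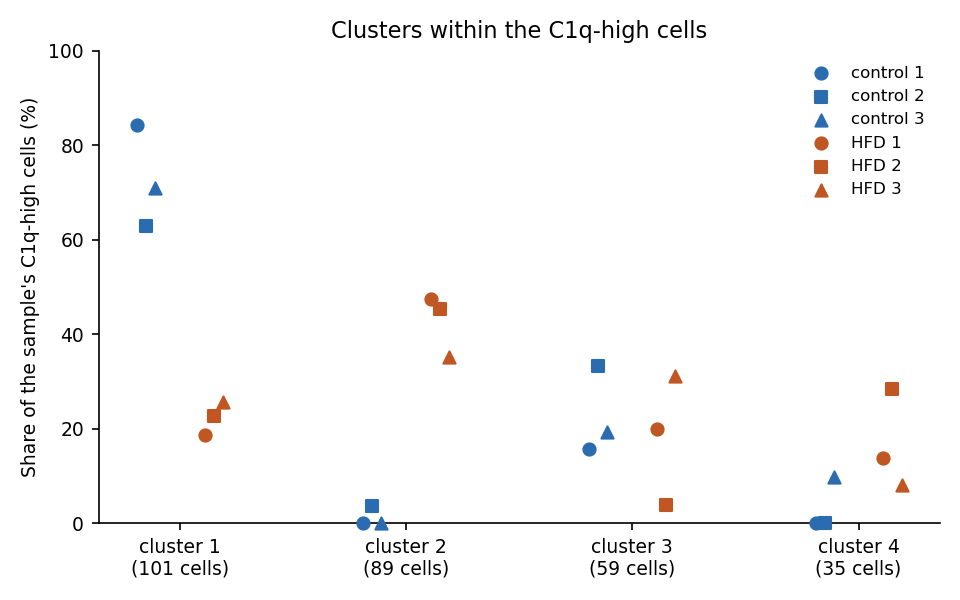
Share of each sample's C1q-high cells (%) in the 4 clusters, 1 point per sample. Cluster 1 takes 63.0% to 84.2% of control members and 18.8% to 25.7% of HFD members, and cluster 2 at most 3.70% and 35.1% to 47.5%.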

How the data were processed

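The deposited files held counts of UMIs per gene and cell for 33456 genes in 6 samples, which the authors made with tools that the submitters' processing notes name as Cell Ranger and Seurat 2.4, with the build mm9 and no roles or order. Counting parameters and any doublet step were not given in the sources used here, and no doublets were called. No coordinate was read from the deposited files. Each barcode was kept in the sample with most of its UMIs, with at least 200 genes and at most 10% mitochondrial UMIs. The members and the gene lists were chosen with earlier results of these data known.

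Counts were summed per sample and population (at least 10 cells) and fitted by edgeR 4.0.16 (TMM scaling, low-count filter, quasi-likelihood test, Benjamini-Hochberg adjustment over all genes tested, threshold 0.05) in R 4.3.3. CPM beside a fold change are TMM-scaled within that fit, and marker levels are CPM of all UMIs. The comparisons with other cells had the sample as a term. Shares were compared by two-sided exact permutation over 20 arrangements. Clusters were made with scanpy 1.11.5 and leidenalg 0.10.2. The scripts were tested on simulated data. Fixed alternatives were DESeq2 1.42.0, its size factors, no count filter, each sample left out, other C1q limits, barcodes listed once, files as deposited, no cells of highest depth and a replicate block. Members with under 3 lipid-marker UMIs, deep members and members without immunoglobulin-rich cells were added after seeing the data.

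Genes named for diet were the 12 largest rises and 12 largest falls among called genes that averaged 50 CPM or more and whose diets did not overlap, and up to 4 per list by smallest p. Against marker cells the 8 largest each way were named, and for the difference of diet effects the 5 largest. Predicted, ribosomal, mitochondrial, antigen receptor and rule genes could not enter by size. H2-Aa, Trem2, Tnf, Ccl9, Cxcl14, Ctss, Ier3, Fcna and F13a1 in the comparisons with marker cells, and Ccl7, Mrc1, F13a1 and Fcgrt in the difference of diet effects, were chosen after their values were seen.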

Additional observations from a re-analysis of the deposited data

Results flagged for a closer look

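The HFD minus control difference was tested against that in the other cells with 20 or more C1q UMIs. On the signed log2 scale this difference was higher in C1q-high cells for 25 genes and lower for 2. A higher value can also mean a smaller fall. The 5 largest by size were Clec4e, a receptor for dead cells and mycobacteria (1.79 ± 0.38, adjusted p = 0.0441), Pmaip1, a promoter of apoptosis (1.77 ± 0.28, adjusted p = 0.00653), Socs3 (1.60 ± 0.27), Fcna (1.59 ± 0.33, adjusted p = 0.0365) and Ly6e (1.54 ± 0.24, adjusted p = 0.00641). The lower ones were Lgals1 (-1.02) and Vim (-0.89), which rose less in members. Socs3 rose more in members, whereas Fcna and Ly6e fell less there. Mean Fcna went from 188 to 134 CPM in members and from 418 to 87.0 in the other cells. Ly6e went from 556 to 294 and from 814 to 147. Clec4e went from 70.9 to 85.8 in members and from 149 to 52.6 in the other cells. Pmaip1 stood at 60.6 to 99.1 CPM in control members and 52.6 to 95.1 in HFD members, against 72.5 to 122 and 25.8 to 31.3 in the other cells. The rule put the resident-marker and lipid-marker cells, whose numbers shifted with diet, among the other cells. These calls are therefore a description only.

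Socs3 was called without each sample. Clec4e was not called without HFD 1 (1.28, adjusted p = 0.124) or without control 1, 2 or 3 (0.0623 to 0.135), and Fcna not without HFD 3, control 1 or control 2 (0.0906 to 0.202). In barcodes listed in 1 sample only, Clec4e, Pmaip1, Fcna, Ly6e, Lgals1 and Vim were not called (0.134 to 0.917).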

How the results depend on the processing

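Shares of the genes tested, which numbered 1413 to 13633 for diet by setting, stand in brackets. For diet, 29 genes (0.793%) were higher and 52 (1.42%) lower in the main fit. Genes higher numbered 147 without the count filter (1.08%), 48 with a C1q sum of 10 or more (1.19%) and 154 as deposited (2.44%). There were 15 with a lipid-marker sum under 3 (0.822%) and 9 in members of 5000 UMIs or more (0.275%). With 1 sample left out there were 8 to 21 (0.195% to 0.764%). Genes lower numbered 94 with DESeq2 (6.39%), 100 without the filter (0.734%) and 23 in barcodes listed once (1.63%). They numbered 119 as deposited (1.88%), 20 in deep members (0.611%) and 5 to 41 with 1 sample left out (0.204% to 1.65%). For the difference of diet effects, 25 genes (0.359%) were higher and 2 (0.0287%) lower in the main fit. Genes higher numbered 114 without the filter (0.668%), 52 without the 5% deepest cells (0.791%) and 41 with a lipid-marker sum under 3 (0.668%). With 1 sample left out they numbered 16 to 54 (0.208% to 0.743%). Genes lower numbered 7 with DESeq2 (0.821%), 16 without the filter (0.0938%), and 5 (0.0646%) and 0 with C1q sums of 10 and 40 or more. They numbered 14 in barcodes listed once (0.459%), 16 without the deepest cells (0.243%) and 8 with a lipid-marker sum under 3 (0.13%). With 1 sample left out there were 0 to 27 (at most 0.373%). Against lipid-marker cells, 486 genes were higher (9.26%) and 398 lower (7.58%) in the main fit of 4 samples. Genes higher numbered 292 with DESeq2 (3.94%) and 257 to 554 with 1 sample left out (5.1% to 8.16%). Genes lower numbered 241 with DESeq2 (3.25%), 188 to 426 with 1 sample left out (3.73% to 6.27%) and 669 without the filter (4.3%). In barcodes listed once, only 2 samples, HFD 1 and HFD 3, held enough cells. There 136 genes were higher (3.22%) and 85 lower (2.01%). Against resident-marker cells, 151 genes were higher (5.85%) and 188 lower (7.28%) in the main fit. Genes higher numbered 230 with a C1q sum of 10 or more (7.53%) and 105 to 153 with 1 sample left out (3.26% to 5.9%). Genes lower numbered 118 with DESeq2 (3.06%) and 149 to 175 with 1 sample left out (4.61% to 6.74%). In barcodes listed once, only the 3 control samples held enough cells. There 41 genes were higher (3.99%) and 72 lower (7%). The share differed by 16.3 points in barcodes listed once, 23.2 thinned, 0.65 with a lipid-marker sum under 3, -2.65 as deposited and 8.59 to 11.3 with 1 sample left out.

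As deposited, where one barcode enters several samples, 42 of the 80 diet calls tested kept their sign. Among the genes named, the diet value had the opposite sign for Cd68 (-0.12), Ctsb (-0.062), Ctsd (-0.13), Ctsk (-0.37), Fabp4 (-0.28), Fabp5 (-0.41), Lipa (-0.13), Lpl (-0.17), Maf (0.067), Ms4a7 (-0.012), Nme2 (0.55), Nr4a1 (0.12) and Trem2 (-0.29). So had Fabp5 with a C1q sum of 10 or more (-0.023) and Nr4a1 in barcodes listed once (0.036). The cause was not tested, except that shared barcodes set the deposited counts apart by construction.

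Deviations from the diet mean correlated in same-numbered samples at r = -0.22, 0.10 and 0.03 over 2388 genes. In samples of different number r ranged from -0.32 to 0.31. These values, from 3 samples per diet, cannot decide whether the numbers pair the samples. With the replicate block, 25 genes were higher and 58 lower with diet, 63 of the 81 calls were made again, and the share gave an exact p of 0.25, the smallest 3 pairs allow. Control samples held only 19 to 31 members each, which limits the precision of every diet value.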
